A study of Cucumis sativus with 6 samples.

Results

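The genes described here are the YABBY, WUSCHEL-related and MADS-box genes among those that the submitters list as differing between wild type cucumber (Cucumis sativus) and the Cshec2 mutant. They were found by searching the Swiss-Prot and NR protein descriptions for YABBY, WUSCHEL or MADS, which gave 8 of the 1589 listed genes: 2 YABBY, 3 WUSCHEL-related and 3 MADS-box genes. RNA came from female buds 7 days before anthesis, from 3 wild type and 3 Cshec2-/- libraries that the design text calls biological replicates. The labels name no cultivar, allele or number of plants per library.

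YABBY proteins are plant transcription factors that help to set the difference between the upper and lower side of leaves and floral organs. WUSCHEL-related homeobox (WOX) proteins keep stem cells in meristems or drive the outgrowth of organ blades, depending on the member. MADS-box proteins of the K-box type control the time of flowering and the identity of floral organs, and work in complexes with each other. The mutated gene, CsHEC2, is placed by the series title in fruit wart formation and cytokinin synthesis, and it belongs to the HECATE group of bHLH proteins.

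In mutant buds both YABBY genes and the WOX1-like and WOX3-like genes were higher than in wild type, by 1.61-fold to 2.04-fold. All 3 MADS-box genes were lower, with wild type means 2.20-fold to 3.00-fold above the mutant means. The WOX13-like gene did not pass the test. With limma on log2(value + 1), 4 of the 8 genes were thus called higher and 3 lower at an adjusted p of 0.05 over the whole table. The table is made of genes selected on this same contrast, and 92.7% of its genes were called in either direction, 18.4% higher and 74.3% lower, so the calls describe size and spread and are no independent evidence of a change. Under median-of-ratios scaling over the table, the 4 higher genes were still called higher and the MADS-box genes kept their direction but were not called (0 of 3). The whole table had 293 higher calls before and after this scaling, which raises mutant values against wild type. Its lower calls fell from 1180 to 225. Neither staying higher nor losing a lower call under this scaling is therefore particular to these genes.

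The Pfam text, which the search did not use, fitted the families except for the MADS domain itself. Both YABBY genes carry the YABBY protein domain, all 3 WUSCHEL-related genes the homeobox domain, and all 3 MADS-box genes the K-box region, the part through which these proteins pair. These 3 are the whole of the K-box genes in the table, whereas 17 genes carry the homeobox domain. The text SRF-type, by which Pfam names the MADS domain, matched 0 genes, so that domain was not seen in these 3. A further gene with the YABBY domain, Csa5G606780, is described as CRABS CLAW and was not found by the search. It is given with the other polarity genes below. The names are similarities and not established identities: the Swiss-Prot text calls Csa5G160210 YAB1, while the NR text calls it YABBY 5-like.

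The file names no unit for its normalised values, so levels of different genes are not compared. Summed over the listed genes they came to between 23592 and 24173 in the mutant libraries and between 41126 and 59342 in wild type. The listed genes were selected as different, 293 listed up and 1296 listed down, so these sums are no measure of library size. Read depth is unknown. The expression of CsHEC2 itself was not checked. The word HECATE matched 0 descriptions, but other names of the gene were not searched, so it may still be among the listed genes. Of the tissue marker lists, which were matched by words in the descriptions, no listed gene matched stamen and pollen. Summed levels were 109 to 125 in the mutant and 165 to 213 in wild type for 3 photosynthetic genes, and 122 to 129 against 145 to 234 for 7 vascular genes. They were 82.5 to 86.6 against 137 to 162 for 12 epidermis and trichome genes, and 26.5 to 28.4 against 38.1 to 48.6 for 2 ovule and seed genes. The sums hide members that went both ways: 3 vascular genes were called higher, 3 lower and 1 neither, and 3 epidermis and trichome genes were called higher and 9 lower. All 3 photosynthetic genes and both ovule and seed genes were called lower, as were 74.3% of the table's genes. A matched word does not establish a tissue. The epidermis and trichome list takes in trichome birefringence-like proteins, and the ovule and seed list a late embryogenesis abundant protein. The part of any tissue differences in the results below was not tested. In bulk buds, fewer cells that express a gene and less RNA per cell cannot be told apart.

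**Figure D1:**
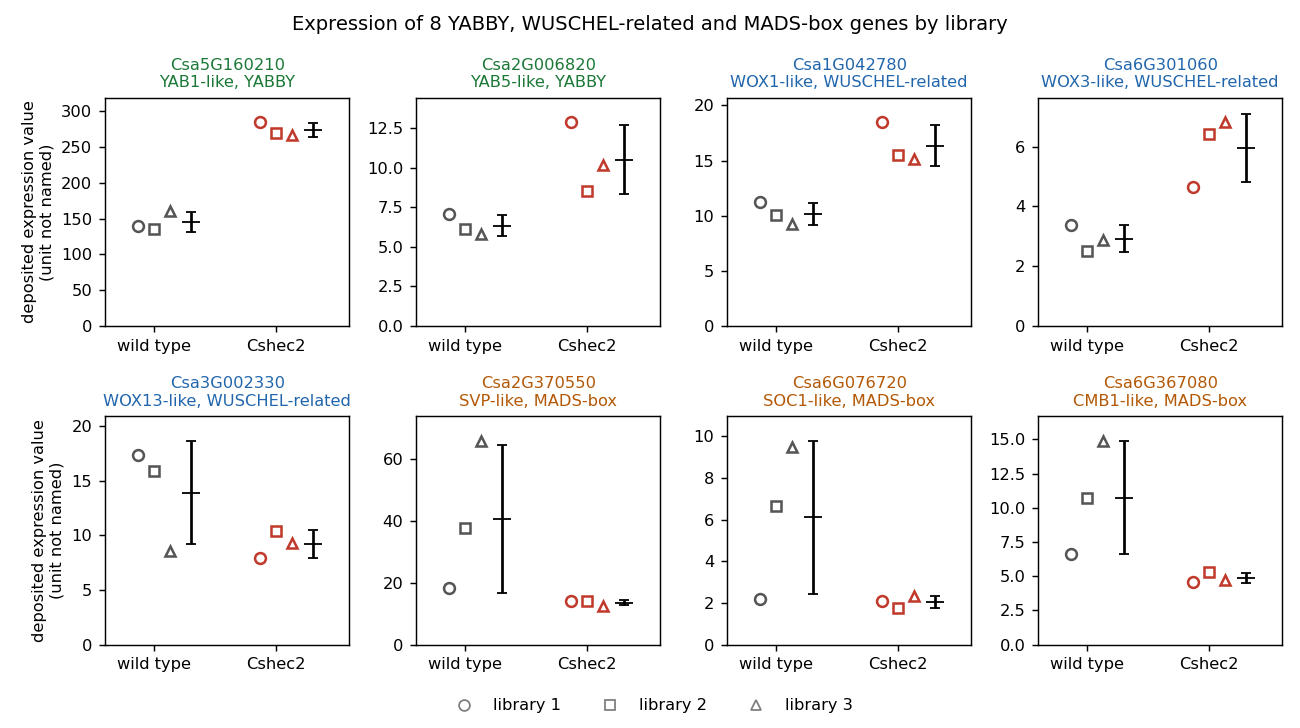
Deposited expression value (unit not named) of each of the 8 genes in each library, wild type in grey and Cshec2 in red, with the symbol showing the library number and the black bar the mean ± SD of 3 libraries; each panel has its own axis from 0. The YABBY, WOX1-like and WOX3-like genes are higher in all 3 mutant libraries, while the MADS-box genes and the WOX13-like gene are uneven in wild type.

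Among the YABBY genes, Csa5G160210 resembles YAB1, which in Arabidopsis promotes the fate of the lower side of lateral organs. Its value was 284, 269.9 and 267 in mutant libraries 1 to 3 and 139, 135 and 160.5 in wild type libraries 1 to 3. The groups did not overlap, and the lowest mutant value was 1.66 times the highest wild type value. The means were 274 ± 9.22 and 145 ± 13.7 (SD, n = 3), a ratio of 1.89, and limma put the log2 change at 0.92 (95% interval 0.58 to 1.25, SE 0.14, adjusted p = 0.00255). The authors' deposited table gives it a log2 fold change of 0.84 and an FDR of 4.06e-13, which ranks 149 among the 1589 genes and first among these 8.

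Csa2G006820 resembles YAB5, a further Arabidopsis YABBY gene that acts in leaves together with its relatives. It stood at 12.9, 8.53 and 10.1 in the mutant libraries and at 7.08, 6.13 and 5.82 in wild type. All mutant values were above all wild type values, by a factor of 1.20 at the closest, and mutant library 1 was the highest. The means were 10.5 ± 2.19 and 6.34 ± 0.659, which limma put at a log2 change of 0.63 (adjusted p = 0.0182, SE 0.19). The call was lost without mutant library 1 (limma adjusted p = 0.0627) and without mutant library 3 (limma adjusted p = 0.0531).

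The WUSCHEL-related genes did not go one way. Csa1G042780 resembles WOX1, which in Arabidopsis acts with WOX3 in the outgrowth of leaf and floral organ blades along the border of their upper and lower sides. Its value was 18.5, 15.5 and 15.1 in the mutant libraries and 11.2, 10.1 and 9.23 in wild type. These groups were apart by a factor of 1.34 at the closest. The log2 change was 0.63 (SE 0.16, limma adjusted p = 0.00992), from means of 16.4 ± 1.83 and 10.2 ± 1.01.

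Csa6G301060 resembles WOX3, also named PRESSED FLOWER in Arabidopsis, which acts at the margins of floral organs and leaves. It stood at 4.66, 6.40 and 6.81 in the mutant libraries and at 3.38, 2.50 and 2.89 in wild type. Here mutant library 1 was the lowest of its genotype and still 1.38 times the highest wild type value. The means were 5.96 ± 1.14 and 2.92 ± 0.440, a ratio of 2.04, and the limma estimate was 0.82 on the log2 scale (adjusted p = 0.00833, SE 0.19).

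Csa3G002330 resembles WOX13, which belongs to an older branch of the family and takes part in fruit patterning in Arabidopsis. Its value was 7.91, 10.4 and 9.35 in the mutant libraries and 17.3, 15.9 and 8.53 in wild type. Wild type library 3 lay inside the mutant range and the other two wild type libraries above it, so the groups overlapped. The log2 change was -0.50 (SE 0.27, 95% interval -1.15 to 0.15, limma adjusted p = 0.114). Without wild type library 3 limma gave -0.79 (adjusted p = 0.00559), and median-of-ratios scaling turned it to 0.35 (adjusted p = 0.473). For this gene the authors' deposited table holds an FDR of 0.0479, rank 1580 of the table, and -0.60 as log2 fold change.

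The MADS-box genes were low and even in the mutant and spread widely in wild type. Csa2G370550 resembles SVP, which in Arabidopsis represses flowering and acts early in floral meristems. Its value was 14.0, 14.0 and 12.5 in the mutant libraries and 18.3, 37.6 and 65.7 in wild type. Every wild type value was above the mutant range, but library 1 was close to it, at 1.30 times the highest mutant value, and library 3 far above. The means were 13.5 ± 0.879 and 40.5 ± 23.8, and the log2 change came to -1.34 (SE 0.42, 95% interval -2.34 to -0.35, limma adjusted p = 0.0204).

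Csa6G076720 resembles SOC1, which in Arabidopsis promotes flowering by joining signals of day length, age and hormones. It stood at 2.10, 1.75 and 2.31 in the mutant libraries and at 2.21, 6.65 and 9.48 in wild type. Wild type library 1 lay within the mutant range, so the groups overlapped. The log2 change was -1.06 (SE 0.42, 95% interval -2.06 to -0.07, limma adjusted p = 0.0432), the largest p of the 7 called genes. It was -0.70 without wild type library 3 (limma adjusted p = 0.106), -1.56 without wild type library 1 (limma adjusted p = 0.00106) and -0.93 without wild type library 2 (limma adjusted p = 0.124).

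Csa6G367080 resembles CMB1 of carnation, a MADS-box protein of the SEPALLATA group, whose members help to specify floral organs. Its value was 4.60, 5.27 and 4.74 in the mutant libraries and 6.61, 10.7 and 14.9 in wild type. The groups did not overlap, with wild type library 1 at 1.25 times the highest mutant value. The log2 change was -0.94 (SE 0.28, limma adjusted p = 0.0173), from means of 4.87 ± 0.353 and 10.7 ± 4.14.

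The 3 MADS-box calls depended on which library was left out. None was called without mutant library 1, without mutant library 3 or without wild type library 2 (0 of 3 each). Only that of Csa6G367080 was called without mutant library 2. The whole table also lost lower calls in these fits. From 1180 with all 6 libraries they fell to 860, 850, 971 and 823, in the order given. Lost calls are thus not limited to the MADS-box genes. Without wild type library 3 that of Csa6G076720 was lost, and the log2 changes of Csa2G370550, Csa6G076720 and Csa6G367080 shrank to -0.91, -0.70 and -0.69. Without wild type library 1 all 3 were called, with larger changes of -1.81, -1.56 and -1.22 and limma adjusted p of 0.00106, 0.00106 and 0.00206. Without mutant library 1 the limma adjusted p was 0.0537 for Csa2G370550, 0.0939 for Csa6G076720 and 0.0541 for Csa6G367080. All 3 log2 changes were negative in each fit that left out a library, from -1.81 to -0.69. Whether reads were divided between similar MADS-box genes in counting is not stated in the sources used here, so their separate values are uncertain.

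**Figure D2:**
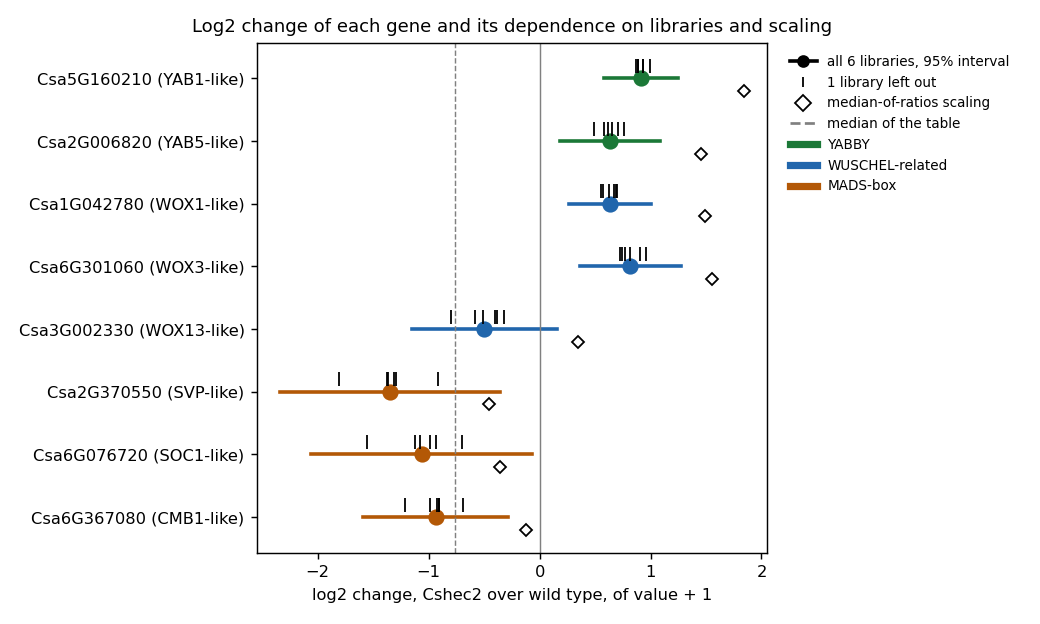
Log2 change of value + 1, Cshec2 over wild type, with its 95% interval from limma on all 6 libraries (filled circles), after leaving out 1 library at a time (ticks) and after median-of-ratios scaling (open diamonds); the dashed line is the median of the table, -0.77. The 4 higher genes stay above 0 under each setting drawn, the MADS-box genes stay below 0, and the WOX13-like gene is at -0.50 and moves to 0.35 after scaling.

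Beside the median log2 change of -0.77 over the whole table, the median was 0.78 for the 2 YABBY genes, 0.63 for the 3 WUSCHEL-related genes and -1.06 for the 3 MADS-box genes. Median-of-ratios scaling moved the table's median by 0.74, to -0.03, and the family medians to 1.65, 1.49 and -0.36. After this scaling the 4 higher genes lay between 1.45 and 1.84, and the MADS-box genes between -0.46 and -0.12. The table was selected on this contrast and is mostly lower, so centring it places any gene listed as higher far above the centre. Values of the 2 genotypes did not overlap for 6 of the 8 genes, against 94.0% of the table's genes; the exceptions were Csa3G002330 and Csa6G076720.

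The ratio of 2 genes within 1 library does not depend on how that library was scaled. For all 6 pairs of a MADS-box with a YABBY gene, the mutant and wild type ratios did not overlap, and the log2 ratio of the MADS-box gene to the YABBY gene differed between the genotypes by -2.33 to -1.78. For Csa2G370550 over Csa5G160210, the log2 ratio was -4.34, -4.27 and -4.42 in the mutant libraries and -2.92, -1.85 and -1.29 in wild type. All 6 pairs of a MADS-box gene with the WOX1-like or WOX3-like gene were also apart. Over the whole table, the ratios of 99.9% of pairs of genes with opposite directions were apart, so these counts restate the opposite directions and are nothing particular to these families. Among pairs of genes with the same direction 33.0% were apart, and among all pairs 53.1%. Ratios among the 3 MADS-box genes overlapped between genotypes in all 3 pairs, with differences of -0.34 to -0.06.

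Within the higher genes, the ratios of the WOX1-like and WOX3-like genes to the YABBY genes overlapped between genotypes in all 4 pairs, with differences of -0.24 to 0.31. The log2 ratio of Csa1G042780 to Csa2G006820 was 0.52, 0.86 and 0.57 in the mutant and 0.67, 0.71 and 0.67 in wild type. The ratio of the WOX13-like gene to each of the 4 higher genes was apart, which restates the opposite directions. Its ratio to each of the 3 MADS-box genes overlapped between genotypes but was uneven in wild type. For Csa2G370550 over the WOX13-like gene, the log2 ratio was 0.83, 0.43 and 0.42 in the mutant and 0.08, 1.24 and 2.95 in wild type. The wild type values of the WOX13-like gene leaned to other libraries than those of the MADS-box genes, as given below. Over Csa5G160210 its mean log2 ratio was -4.90 in the mutant and -3.44 in wild type.

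**Figure D3:**
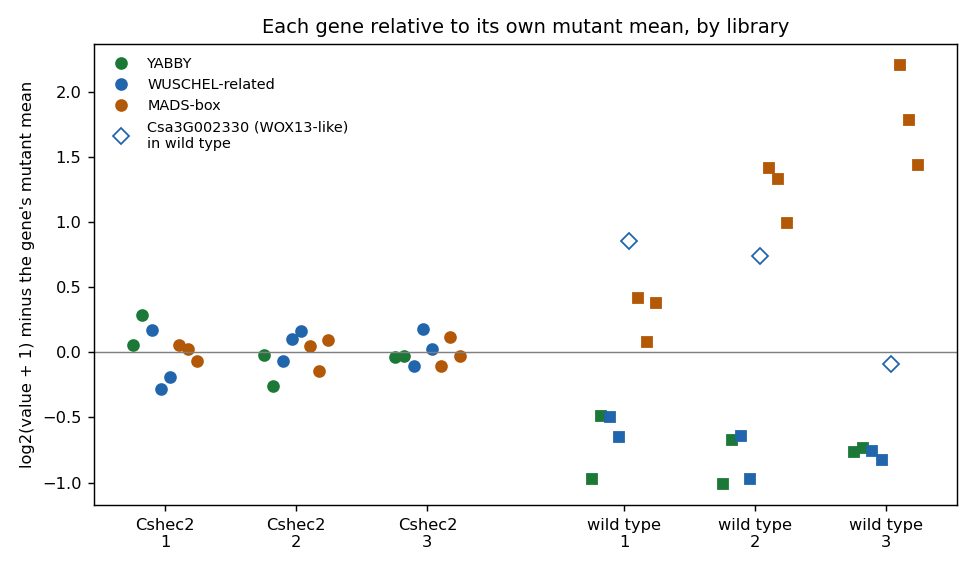
Log2(value + 1) of each gene minus its own mean over the 3 mutant libraries, by library, with the families in colour and the WOX13-like gene as open diamonds in wild type. The MADS-box genes lie furthest from the mutant in wild type library 3 and nearest in library 1, the WOX13-like gene the other way round, and the YABBY, WOX1-like and WOX3-like genes lie below the mutant in all 3 wild type libraries.

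The families also differed in how even they were among wild type libraries, which the search did not use. The SD of log2(value + 1) over the 3 wild type libraries was 0.90 for Csa2G370550, 0.88 for Csa6G076720 and 0.53 for Csa6G367080, at percentiles 93.8, 93.5 and 78.4 of the table, whose median was 0.28. It was 0.52 for the WOX13-like gene. For the YABBY, WOX1-like and WOX3-like genes it was 0.13 to 0.16, at percentiles 15.8 to 23.9. It was 0.14 and 0.31 for the 2 polarity genes described below, and 0.06 to 0.24 for the 4 higher floral genes. Low values are therefore nothing particular to these families, and the WUSCHEL-related genes were split. Whether evenness goes with family or with the direction of change was not tested. Among mutant libraries the MADS-box SD was 0.09 to 0.14, with a table median of 0.13.

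The uneven genes leaned to different libraries. Wild type library 3 was above library 1 by 3.59-fold for Csa2G370550, 4.29-fold for Csa6G076720 and 2.25-fold for Csa6G367080. For the WOX13-like gene library 3 was at 0.492 times library 1, with a log2(value + 1) difference of -0.94 at percentile 3.71 of the table. The table's median difference between these libraries was 0.08, and 31.2% of its genes had a highest wild type value at least 2-fold above the lowest. The table's summed value was also highest in wild type library 3. What sets these libraries apart was not tested.

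Likeness to other genes was measured as the root mean square difference of log2(value + 1) over the 6 libraries, after centring each gene on its own mean, and is a description of these libraries. The genes nearest to Csa5G160210 were Csa1G600160, described as a chloroplast translocon component, at 0.06, Csa7G290540, described as a DETOXIFICATION transporter, at 0.06, and Csa6G011040, described as an auxin transporter-like protein, at 0.07. Csa1G042780 ranked 146, Csa6G301060 ranked 151 and Csa2G006820 ranked 200 in nearness to it. Nearest to the WOX1-like gene Csa1G042780 were Csa3G851690 (a ubiquitin hydrolase), Csa6G004480 (a gibberellin oxidase-like protein) and Csa2G348910 (a trichome birefringence-like protein), at 0.05 to 0.06, and the YAB5-like gene ranked 30 at 0.10. Of its own family, the WOX3-like gene ranked 214 at 0.26 and the WOX13-like gene 438 at 0.64.

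Nearest to the SVP-like gene Csa2G370550 were Csa6G133770, described as the transcriptional activator PTI6, at 0.07, Csa2G382470, which has no Swiss-Prot description, at 0.10, and Csa4G326550, an aminotransferase, at 0.10. The SOC1-like gene ranked 47 at a difference of 0.21, and the CMB1-like gene ranked 114 at 0.30. Of the other families, the WOX13-like gene ranked 1222 at 0.91. Many genes of the table thus followed each family's reference gene more closely than its relatives did.

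Other regulators of organ polarity were few in the table. Of 2 listed, both were called higher, against 18.4% of the table's genes. They stayed so after median-of-ratios scaling, which keeps higher calls by its construction. Csa5G606780, described as CRABS CLAW, a YABBY protein that Arabidopsis needs for carpel growth and nectaries, stood at 253, 233 and 266 in the mutant libraries and at 168, 137 and 109.8 in wild type. The groups did not overlap, and the log2 change was 0.87 (SE 0.19, limma adjusted p = 0.00684). Csa6G518210, described as ARF3, an auxin response factor that acts with the lower-side program and in the gynoecium of Arabidopsis, had mean values of 36.0 ± 1.03 in mutant and 21.2 ± 2.13 in wild type buds (log2 change 0.74, SE 0.14, limma adjusted p = 0.00462).

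Of 5 other floral and organ growth regulators, 4 were called higher and 1 lower, with a median log2 change of 0.70. Among all listed genes 18.4% were called higher and 74.3% lower, with a median of -0.77. Whether these 5 differ from those shares was not tested. The split of the 5 was again 4 and 1 after median-of-ratios scaling. The lower one was Csa1G077150, described as TCP3, which in Arabidopsis restrains cell division in leaf margins, at 2.17 ± 0.651 against 10.9 ± 4.08 (log2 change -1.86, SE 0.31, limma adjusted p = 0.00319). Csa5G644520, described as CYCLOIDEA, which sets floral symmetry in Antirrhinum, measured 1.55 ± 0.0848 against 0.561 ± 0.218. Csa2G000170, described as the growth-regulating factor GRF5, measured 26.5 ± 0.435 against 15.8 ± 2.11, and Csa1G033030, described as TCP15, 7.06 ± 1.27 against 3.93 ± 0.215. Csa3G751470, described as GRF4, measured 8.77 ± 0.860 against 5.37 ± 1.01 and lost its call without mutant library 1 or 2, with limma adjusted p up to 0.0658.

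Of 26 other meristem and homeobox genes, 10 were called higher and 16 lower, with a median log2 change of -0.77. Among all listed genes 18.4% were called higher and 74.3% lower. Their median was also -0.77, so the meristem median is nothing particular to this list. Whether its calls differ from these shares was not tested. After median-of-ratios scaling 10 of the 26 were called higher and 5 lower, with a median of 0.08 against -0.03 for all listed genes. Csa6G426360, described as BLH1, a homeodomain protein that pairs with KNOX proteins, averaged 2.49 ± 0.673 in mutant and 14.5 ± 2.25 in wild type buds (log2 change -2.16, SE 0.21, limma adjusted p = 0.000848). A further gene described as BLH1, Csa3G782620, changed less, at 14.4 ± 1.37 against 27.8 ± 7.08 (log2 change -0.88, SE 0.22, limma adjusted p = 0.0096). After median-of-ratios scaling its log2 change was 0.004 (limma adjusted p = 0.988). It was chosen after its values were seen. Csa6G355380, described as CUP-SHAPED COTYLEDON 3, a NAC protein that marks organ boundaries, measured 4.45 ± 1.30 against 24.9 ± 8.01, whereas a further gene described as CUP-SHAPED COTYLEDON 3, Csa4G664400, was called higher at 10.2 ± 1.35 against 4.77 ± 0.864 (log2 change 0.96, SE 0.19, limma adjusted p = 0.00495). The related Csa4G629480, described as CUP-SHAPED COTYLEDON 2, was also called higher, at 4.09 ± 0.772 against 1.90 ± 0.0762, and both were chosen after their values were seen. Csa7G237840, described as LBD4, measured 0.478 ± 0.117 against 2.09 ± 0.367. In the other direction, Csa3G901690, described as TORNADO 2, measured 5.10 ± 1.51 against 0.920 ± 0.216, and the CLAVATA3/ESR-related peptide gene Csa2G131680 11.6 ± 0.687 against 5.30 ± 0.169. Csa6G426360, Csa6G355380, Csa7G237840, Csa3G901690 and Csa2G131680 had the 5 smallest p-values of the list. These 5 kept their calls after scaling, which for the higher Csa3G901690 and Csa2G131680 follows from its construction.

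**Figure D4:**
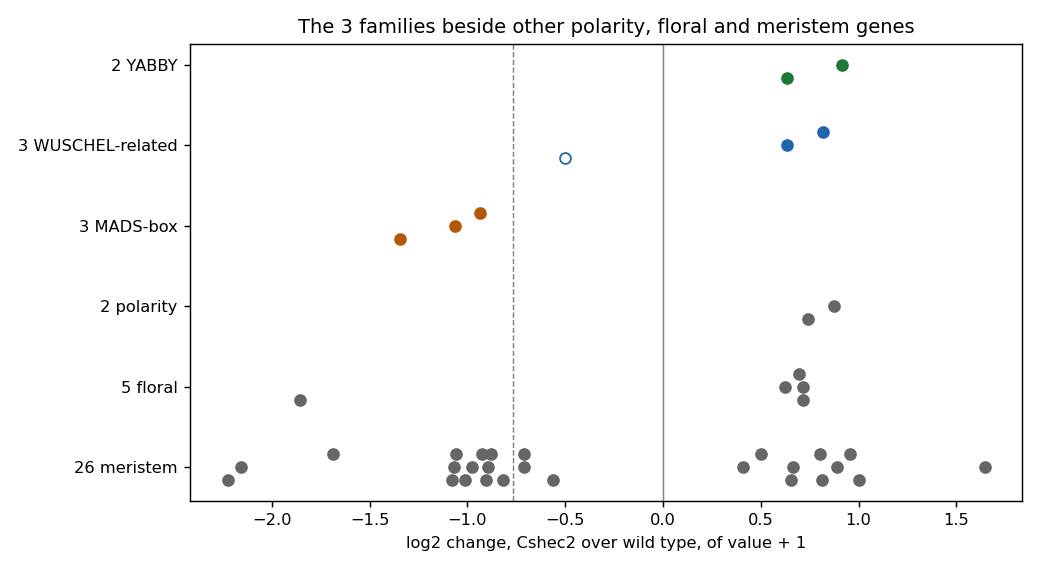
Log2 change of value + 1, Cshec2 over wild type, of the 2 YABBY, 3 WUSCHEL-related and 3 MADS-box genes (coloured) and of the 2 polarity, 5 floral and 26 meristem genes (grey), 1 point per gene, open where limma did not call it; the dashed line is the table's median of -0.77. YABBY and polarity genes lie above 0, MADS-box genes below, and the meristem genes on both sides. The meristem group is a list matched by words in the descriptions, homeobox among them.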

How the data were processed

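One deposited table of 1589 genes was used, which per the file headers lists genes that differ between the genotypes. The authors' values are a normalised expression signal of unnamed unit, deposited per library. The deposited FDR column holds adjusted p-values from the authors' own test, and the deposited log2 fold change is mutant over wild type, with a smallest absolute value of 0.585. The submitters' processing notes name HISAT2, HISAT and DESeq2 and give no version or role for them. The genome build is not given in the sources used here. Of the 8 genes 0 were matched in the RefSeq gene table, so no coordinates or sequences are shown.

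Genotypes were compared with limma 3.58.1 (R 4.3.3) with a variance trend on log2(value + 1), without a filter, and p-values were Benjamini-Hochberg adjusted over the table at 0.05. This scale understates changes of low values. The fit was also run on simulated data, in which a minority of genes changed, in random directions. That setting is unlike this selected and mostly lower table, so no conclusion is drawn from it. The genes and keyword lists were chosen with earlier results of these data known. Described are all 8 genes, up to 5 called genes with the smallest p from each related list, and the 3 genes nearest in pattern to Csa5G160210 and to the WUSCHEL-related and the MADS-box gene with the highest mean value. Alternatives were other pseudocounts, a mean of at least 1, median-of-ratios scaling, no trend, a block for the replicate number, leaving out each library, and a threshold of 0.01. Figures were drawn with matplotlib 3.10.9.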

Additional observations from a re-analysis of the deposited data

How the results depend on the processing

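The 4 higher calls were 3 to 4 when a library was left out, 3 at a threshold of 0.01 and 4 under every other setting but the Pfam one below. The 3 lower calls were 0 after median-of-ratios scaling, 0 at a threshold of 0.01 and 0 to 3 when a library was left out (without wild type library 3 these 3 include Csa3G002330 and not Csa6G076720). That scaling centres a table of selected genes that are mostly lower, so by its construction it takes lower calls and keeps higher ones. It left 225 lower genes of 1180 in the whole table, and 293 higher. At 0.01 the table had 195 higher and 635 lower genes. Leaving out a library gave 263 to 289 higher and 823 to 1236 lower genes in the table. The 1 reversed log2 change was that of Csa3G002330, at 0.35 after median-of-ratios scaling. Counting the gene matched by Pfam text, an alternative chosen after seeing the data, gave 5 higher and 3 lower. The replicate numbers did not pair the libraries: deviations of same-numbered libraries correlated at -0.09, -0.04 and -0.18 over genes. With the replicate number as a block, the calls were 4 higher and 3 lower, and 288 and 1104 in the table. Read depth is unknown, so no detection limit can be given.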
